A study of Mus musculus with 3 samples.

Results

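DNA methylation and TET genes encode the enzymes that add methyl groups to cytosine, copy them after replication and start their removal. The 9 genes were listed by name, not by a threshold on their values, and all 9 were found among the 29267 genes of each table. Dnmt1 and Uhrf1 act in the maintenance of methylation. Dnmt3a, Dnmt3b and Dnmt3l act in its establishment. Tet1, Tet2, Tet3 and Tdg act in its removal. RNA-seq had been performed to compare the transcriptomes of MEFs (mouse embryonic fibroblasts), from which reprogramming to pluripotency starts, and ESCs (embryonic stem cells). The 3 libraries were 1 of MEFs from OG2 mice, which carry a GFP reporter driven by the Oct4 gene, 1 of MEFs from ICR mice, and 1 of the R1 ESC line, labelled naive. The MEFs were at passages 3 to 5 and the ESCs at passage 30. No treatment was named for any of these libraries. With 1 library per strain, the strain and the individual culture cannot be told apart, and the ESC side has no replicate. Between the ESC library and the MEFs, cell type, strain or line of origin and passage differ together and cannot be told apart either. Nothing in the labels says how many embryos each MEF culture came from.

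DNMT1 is the maintenance methyltransferase, and UHRF1 brings it to DNA in which only the old strand carries the methyl group. DNMT3A and DNMT3B methylate new sites, and DNMT3L is a cofactor of both without catalytic activity of its own. TET1, TET2 and TET3 are dioxygenases that use iron and 2-oxoglutarate and oxidise methylated cytosine. Ascorbate supports this reaction, which is why these genes are of interest in a study of vitamin C in reprogramming. TDG is the glycosylase that excises the most oxidised products, after which base excision repair inserts an unmodified cytosine. In the textbook account, mouse ESCs express Tet1, Tet2, Dnmt3b and Dnmt3l, fibroblasts express Tet3, and dividing cells express Dnmt1 and Uhrf1.

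Expected counts, the estimated numbers of reads that RSEM assigns to a gene, summed to 5149312 in the OG2 MEFs, 4590619 in the ICR MEFs and 1717838 in the ESC library. Levels and their sums are given as CPM, counts per 1000000 summed counts without further scaling, with Wilson 95% intervals for single genes that cover counting error only. Levels of different genes are compared as TPM, which is scaled by gene length, and ratios and shares of the counts of several genes serve only to compare libraries. The ESC library is named by its label throughout because of its marker genes. Of 16 pluripotency genes, 7 exceeded each MEF sample by 1 log2 unit or more (summed level of the list 160 CPM, against 42.9 in OG2 and 49.2 in ICR MEFs). These were Pou5f1 (71 counts in the ESC library), Nanog (51), Sox2 (32), Fgf4 (14), Tfcp2l1 (10), Tdgf1 (2) and Tbx3 (74). Tbx3 also had 96 and 79 counts in OG2 and ICR MEFs. Klf2 was lower, with 63, 91 and 2 counts in OG2 MEFs, ICR MEFs and the ESC library. In the ESC library 6 had a count of 0, namely Zfp42, Utf1, Dppa2, Dppa4, Dppa5a and Esrrb. Of 12 fibroblast genes, 11 were lower in the ESC library, and their summed level of 3202 CPM there compared with 28580 and 29680 CPM in OG2 and ICR MEFs. None of these 12 was at 0 in it. Epithelial genes summed to 367 CPM in the ESC library and to 9.13 and 15.7 CPM in OG2 and ICR MEFs, endothelial genes to 67.5, 14.6 and 20.5 CPM, blood genes to 75.1, 36.5 and 16.6 CPM, and trophoblast genes to 16.9, 4.08 and 5.23 CPM. The epithelial sum in the ESC library came mainly from Krt14 (414 counts) and Krt8 (177), while Epcam and Cdh1 had 11 and 2, and Krt5 and Cldn4 had 0. The endothelial sum came mainly from Pecam1 (90 counts), while Cdh5 had 0 and Kdr was lower, with 61, 54 and 0 counts in OG2 MEFs, ICR MEFs and the ESC library. Of 8 blood genes 2 were higher in the ESC library, Laptm5 and Hba-a1, and 4 were at 0 there, Ptprc among them. Of 6 trophoblast genes 3 were higher, Elf5, Tfap2c and Gata3, and 3 were at 0, namely Cdx2, Eomes and Tpbpa. The ESC library also had 2186 bases as the mean gene length per count, against 3315 and 3416 bases in OG2 and ICR MEFs. The part of these differences in the results below was not tested. In bulk RNA, fewer cells of a type and less RNA per cell cannot be told apart.

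Dnmt1, Dnmt3a and Tet3 were lower in the ESC library than in both MEF samples, and Uhrf1 was higher by counts, though not in the deposited TPM. Tet1, Tet2, Dnmt3b and Tdg did not differ from each MEF sample by 1 log2 unit or more, and Dnmt3l had no count in any library. The difference of a gene is the log2(CPM + 1) of the ESC library, after TMM scaling, less the MEF mean, and a gene was counted as apart when the ESC library was at least 1 log2 unit above or below each MEF sample. By this rule 1 of the 8 genes with a count was higher and 3 were lower. Of all 17810 genes with a count, 21.9% were higher and 25.9% lower. All 8 had at least 10 counts in 1 library, and of the 12726 genes at that depth 23.7% were higher and 35.7% lower. The quasi-likelihood test of edgeR, with adjustment after Benjamini and Hochberg, called 1 of the 8 higher and 3 lower, the same genes, against 31.4% and 36.0% of the 12663 genes tested. The share of lower genes among the 8 was thus near that of all genes at the same depth, and the share of higher genes was below it. In the deposited TPM, 0 of the 8 were higher and 5 lower, against 9.12% and 43.2% of all genes, and at a fixed length per gene 0 and 5, against 11.3% and 39.7%. The median difference was -1.05 over the 8 genes and -0.43 over the 12726 genes. This fit left 1 residual degree of freedom, so the spread was that between the 2 MEF samples. Before TMM scaling, the summed level of the 9 genes was 387 CPM in the OG2 MEFs, 424 CPM in the ICR MEFs and 239 CPM in the ESC library. The TMM factors, by which library sizes are multiplied, were 1.09, 1.13 and 0.812 in this order, so scaling narrows this gap.

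**Figure D1:**
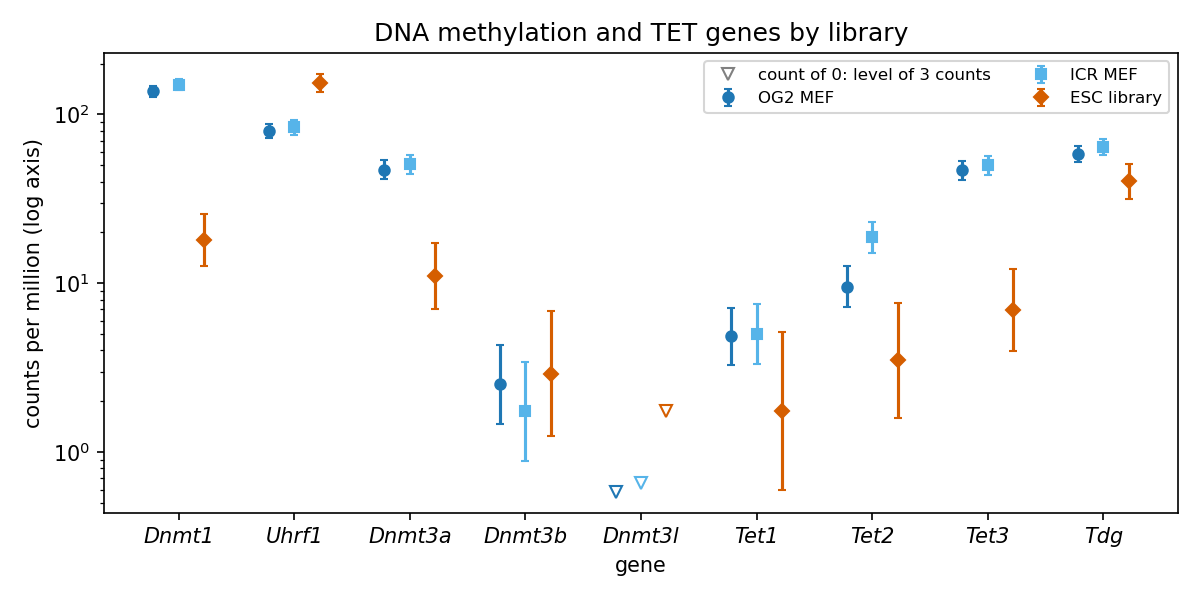
Level of each gene in each library, in CPM on a log axis. Points are the libraries of OG2 MEFs, ICR MEFs and the ESC library, bars are Wilson 95% intervals for counting error, and open triangles mark the level of 3 counts for Dnmt3l, which had a count of 0. Dnmt1, Dnmt3a and Tet3 lay lower in the ESC library, and Uhrf1 lay higher at 154 CPM.

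**Figure D2:**
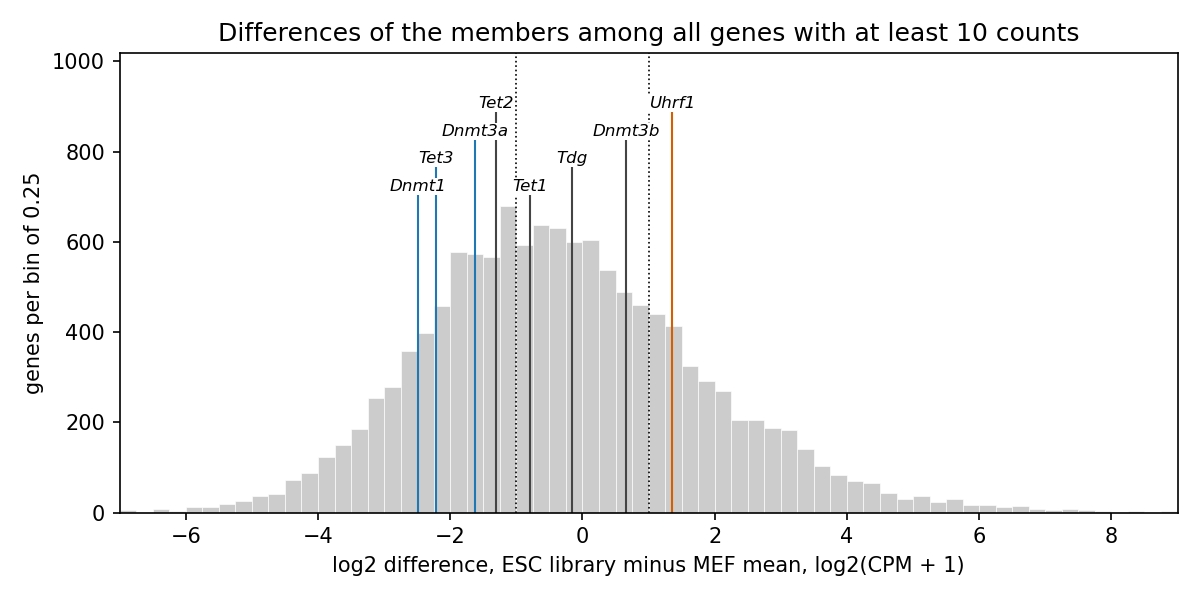
Log2 differences of the ESC library from the MEF mean for the 12726 genes that reached 10 counts in 1 library, in bins of 0.25 (grey bars, number of genes). Vertical lines mark the 8 genes with a count, in blue where lower and in orange where higher than each MEF sample by 1 log2 unit or more, and dotted lines mark 1 and -1. All 8 lay inside the bulk of the distribution, from the 13.4th percentile for Dnmt1 to the 79.4th for Uhrf1.

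Both maintenance genes were well covered, and they changed in opposite directions by counts, though both had lower values than MEFs in the deposited TPM. Dnmt1 (chr9:20907209-20959888, minus strand, GRCm38) had 707 counts in the OG2 MEFs, 687 in the ICR MEFs and 31 in the ESC library. These were levels of 137 CPM (interval 128 to 148), 150 CPM (139 to 161) and 18.1 CPM (12.7 to 25.6). The level in the ESC library was far outside the range of both MEF samples, which lay close to each other. Per TMM-scaled library, Dnmt1 was 5.65-fold lower than in OG2 MEFs (3.94 to 8.37) and 5.98-fold lower than in ICR MEFs (4.17 to 8.87). On the log2(CPM + 1) scale the difference was -2.49, with an SD of 0.058 between the MEF samples (n = 2 and n = 1), and Dnmt1 fell at an edgeR adjusted p of 1.72e-05.

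Uhrf1 (chr17:56303321-56323486, plus strand) had 413, 385 and 265 counts in OG2 MEFs, ICR MEFs and the ESC library. These were 80.2 CPM (72.8 to 88.3), 83.9 CPM (75.9 to 92.7) and 154 CPM (137 to 174). The interval of the ESC library did not meet those of the MEF samples. Uhrf1 was 2.59-fold higher than in OG2 MEFs (2.21 to 3.03) and 2.55-fold higher than in ICR MEFs (2.17 to 2.99). The difference was 1.35 log2 units (SD of the MEF samples 0.016), and Uhrf1 rose at an edgeR adjusted p of 2.84e-05, but in the deposited TPM, where the median gene shifts by -1.11, the difference was -0.18. In that unit the levels were 45.9 in the OG2 MEFs, 47.8 in the ICR MEFs and 41.3 in the ESC library. Relative to the median gene of the same setting, Uhrf1 was 1.36 to 1.94 log2 units higher under every setting tried, deposited TPM included.

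The ratio of Dnmt1 counts to Uhrf1 counts does not depend on how libraries are scaled. It was 1.71 in the OG2 MEFs (exact 95% interval 1.51 to 1.94), 1.78 in the ICR MEFs (1.57 to 2.03) and 0.117 in the ESC library (0.0779 to 0.170). The MEF intervals overlapped, and that of the ESC library was far from both. The lengths that RSEM assigned to these genes hardly moved, with 98.6% of the MEF mean for Uhrf1 and 102.6% for Dnmt1 in the ESC library. Within a library, Dnmt1 and Uhrf1 thus went from nearly equal TPM in MEFs (48.6 and 45.9 in OG2, 55.1 and 47.8 in ICR) to 2.94 and 41.3 in the ESC library.

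The promoters of these genes are shown because the pair moved apart while sharing a sequence. E2F factors drive genes of the S phase, and 1 form of their site, TTTCGCGC on either strand, was found in the 250 bases before 1 of the 2 RefSeq starts of Uhrf1 and 1 of the 3 starts of Dnmt1. Of the 32851 RefSeq promoters of GRCm38.p6, 0.256% held it in a window of this length. The motif starts 185 bases before the Uhrf1 start and 219 bases before that Dnmt1 start. The forms TTTCCCGC and TTTGGCGC (0.895% and 0.417% of promoters) were in none of the 16 windows of the 9 genes. The Dnmt1 window lies inside the first exon of a transcript from another start, so just 30 bases around the motif are printed. Sequences run 5′ to 3′ on the strand of the gene, with the motif or its reverse complement in capitals.
Uhrf1, chr17:56304063-56304312, plus strand: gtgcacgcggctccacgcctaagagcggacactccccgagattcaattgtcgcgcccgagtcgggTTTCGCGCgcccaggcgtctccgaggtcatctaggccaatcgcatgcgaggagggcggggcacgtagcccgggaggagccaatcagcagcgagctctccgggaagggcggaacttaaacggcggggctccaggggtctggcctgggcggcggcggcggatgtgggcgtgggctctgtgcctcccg
Dnmt1, chr9:20952824-20952853, minus strand: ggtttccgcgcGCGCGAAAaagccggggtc
A match in letters is a description and does not show that the site was bound in these cells.

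Among the genes of new methylation, Dnmt3a was measured well, Dnmt3b barely and Dnmt3l not at all. Dnmt3a (chr12:3806007-3914443, plus strand) had 243, 233 and 19 counts in OG2 MEFs, ICR MEFs and the ESC library, or 47.2 CPM (41.6 to 53.5), 50.8 CPM (44.6 to 57.7) and 11.1 CPM (7.08 to 17.3). Both MEF samples lay above the ESC library with no overlap of intervals. Dnmt3a was 3.17-fold lower than in OG2 MEFs (1.98 to 5.35) and 3.31-fold lower than in ICR MEFs (2.07 to 5.60). It fell by 1.62 log2 units (SD of the MEF samples 0.044, edgeR adjusted p 8.21e-04). Corrected for GC content and gene length, the difference was -0.68 and Dnmt3a was no longer counted as lower. In the deposited TPM the difference was -1.48. Less that of the median gene, it was -1.20 by counts and 0.06 in the deposited TPM.

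Dnmt3b (chr2:153649450-153687730, plus strand), which is known as a gene of the early embryo and of ESCs, had 13 counts in the OG2 MEFs, 8 in the ICR MEFs and 5 in the ESC library. These were 2.53 CPM (1.48 to 4.32), 1.74 CPM (0.883 to 3.44) and 2.91 CPM (1.24 to 6.81), so the intervals of all 3 libraries overlapped. The difference of 0.66 log2 units (SD of the MEF samples 0.27) had an edgeR adjusted p of 0.333, and its sign was negative in the deposited TPM, at -0.29. The ratio of the ESC library to OG2 MEFs was 1.55 with an interval from 0.434 to 4.65, so the depth leaves both a lower and a several-fold higher level within counting error. RSEM gave Dnmt3b a length of 3956 bases in all 3 libraries. That is the length of 1 of the 12 listed transcripts, with 2328 coding bases, against up to 2580 in the others. With 26 counts in all, this choice of transcript rests on few reads.

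Dnmt3l (chr10:78041947-78063622, plus strand) had 0 counts in each library. A count of 0, taken as up to 3 counts, allows a level of up to 0.583 CPM in the OG2 MEFs, 0.654 in the ICR MEFs and 1.75 in the ESC library. This last limit is the level at which Tet1 was measured, from 3 counts. Dnmt3l, a cofactor known from germ cells and ESCs, was therefore not detectable at this depth in the library labelled ESC.

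Of the 3 TET genes, Tet3 had the highest TPM in each library and was by counts the only one lower in the ESC library, joined by Tet2 in the deposited TPM. Tet3 (chr6:83362373-83459084, minus strand) had 240, 229 and 12 counts, or 46.6 CPM in the OG2 MEFs (41.1 to 52.9), 49.9 CPM in the ICR MEFs (43.8 to 56.8) and 6.99 CPM in the ESC library (3.996 to 12.2). The MEF samples agreed within counting error, and the ESC library was below both. Tet3 was 4.95-fold lower than in OG2 MEFs (2.78 to 9.72) and 5.15-fold lower than in ICR MEFs (2.89 to 10.1). It fell by 2.21 log2 units (SD of the MEF samples 0.039, edgeR adjusted p 1.90e-04). The ratio of Tet3 counts to Dnmt1 counts was nearly the same in all libraries, with 0.340 in the OG2 MEFs, 0.333 in the ICR MEFs and 0.387 in the ESC library (interval 0.181 to 0.775).

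Tet2 (chr3:133463679-133545139, minus strand) had 49 counts in the OG2 MEFs, 86 in the ICR MEFs and 6 in the ESC library. These were 9.52 CPM (7.20 to 12.6), 18.7 CPM (15.2 to 23.1) and 3.49 CPM (1.60 to 7.62). Here the MEF samples themselves differed, and the interval of the ESC library overlapped that of OG2 MEFs. The ratio to ICR MEFs was 0.259 (0.0923 to 0.586) and the ratio to OG2 MEFs was 0.495 (0.173 to 1.16). The difference of -1.30 log2 units, with an SD of 0.61 between the MEF samples, had an edgeR adjusted p of 0.0894. It was 0.24 when corrected for GC content and gene length.

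Tet1 (chr10:62804570-62908996, minus strand), a gene known for its expression in ESCs, had 25 counts in the OG2 MEFs, 23 in the ICR MEFs and 3 in the ESC library. Its level was 4.86 CPM (3.29 to 7.17), 5.01 CPM (3.34 to 7.52) and 1.75 CPM (0.594 to 5.14). The intervals overlapped, so the lower value in the ESC library was within counting error. The difference of -0.79 log2 units (SD of the MEF samples 0.002, edgeR adjusted p 0.362) was 0.64 when corrected for GC content and gene length. That correction used the mean of its RSEM lengths in the MEF samples, 13986 bases in OG2 and 4050 in ICR MEFs, which placed Tet1 among the longest genes. An SD as small as 0.002 is below the counting error of 25 and 23 counts and is no measure of the spread of Tet1.

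As shares of the TET counts, Tet3 took 76.4% in the OG2 MEFs (exact 95% interval 71.3 to 81.0), 67.8% in the ICR MEFs (62.5 to 72.7) and 57.1% in the ESC library (34.0 to 78.2). Tet2 took 15.6% (11.8 to 20.1), 25.4% (20.9 to 30.4) and 28.6% (11.3 to 52.2) in the same order. Tet1 took 7.96%, 6.81% and 14.3%, the last from 3 of 21 counts. The ESC library was below OG2 and ICR MEFs in the share of Tet3, but its intervals covered the MEF values for all 3 genes. Per fixed gene length, the order of Tet3, Tet2 and Tet1 was the same in each library.

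The promoter of Tet2 is shown because it stands at the far end of all promoters in CpG content, the substrate of these enzymes. The 250 bases before its RefSeq start hold 51 CpG, the 99.9th percentile of 32851 promoters, whose median was 6. The 3 windows of Dnmt3l, which had no count, held 5, 4 and 3, near or below the median. The windows held 17 for Tet3, 15 for Tet1, 21 for Dnmt3b and 19 for Tdg. The several starts of Dnmt1, Uhrf1 and Dnmt3a ranged from 2, at a start of Dnmt1, to 40, at a start of Dnmt3a. Capitals mark each CpG.
Tet2, chr3:133544391-133544640, minus strand: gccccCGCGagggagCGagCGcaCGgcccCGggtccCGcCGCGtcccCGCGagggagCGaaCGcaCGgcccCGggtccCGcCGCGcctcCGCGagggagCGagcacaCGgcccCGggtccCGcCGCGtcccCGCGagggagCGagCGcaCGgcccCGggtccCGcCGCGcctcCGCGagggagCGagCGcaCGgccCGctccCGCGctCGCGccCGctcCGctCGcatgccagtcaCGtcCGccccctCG
Dnmt3l, chr10:78049592-78049841, plus strand: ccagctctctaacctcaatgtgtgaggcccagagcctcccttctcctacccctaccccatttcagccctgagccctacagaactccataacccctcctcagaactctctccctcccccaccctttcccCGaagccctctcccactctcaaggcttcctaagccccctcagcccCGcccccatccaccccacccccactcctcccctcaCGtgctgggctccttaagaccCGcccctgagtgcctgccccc
The CpG count describes the sequence and says nothing of its methylation, which was not measured here. The half-site of retinoid receptors, AGGTCA on either strand, was in the window of Tet1, in 1 of the 3 windows of Dnmt3a and in 1 of the 2 windows of Uhrf1. No other window of the members held it. Of all promoters, 14.0% held it, and no enrichment is read from these windows.

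Tdg (chr10:82629828-82650799, plus strand), the glycosylase that acts after the TET enzymes, had 300 counts in the OG2 MEFs, 295 in the ICR MEFs and 69 in the ESC library. Its levels were 58.3 CPM (52.0 to 65.2), 64.3 CPM (57.3 to 72.0) and 40.2 CPM (31.7 to 50.8). Before scaling, the ESC library was lowest, but after TMM scaling its ratio was 0.929 to OG2 MEFs (0.705 to 1.21) and 0.867 to ICR MEFs (0.657 to 1.13). The difference of -0.15 log2 units (SD of the MEF samples 0.070, edgeR adjusted p 0.952) was within the interval of counting error. It became 0.04 with median-of-ratios factors and -1.72 in the deposited TPM, where the median gene was at -1.54. Tdg counts were 0.424 and 0.429 of Dnmt1 counts in OG2 and ICR MEFs and 2.23 of them in the ESC library (1.44 to 3.52). The locus of Tdg overlaps Glt8d2 on the other strand, which had 29, 35 and 0 counts. The counting was not stated to use strand, so reads of the overlap cannot be assigned with certainty.

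In TPM, the order of levels in OG2 MEFs was Dnmt1, Uhrf1, Tdg, Dnmt3a, Tet3, Tet2, Dnmt3b, Tet1 and Dnmt3l. Dnmt1 (48.6 TPM), Uhrf1 (45.9) and Tdg (39.6) formed an upper group in which neighbours did not differ beyond counting error. Dnmt3a (17.4 TPM) was below Tdg by 2.28-fold (1.92 to 2.71), and Tet3 (8.68) was below Dnmt3a by 1.67- to 2.41-fold, the interval of the ratio. Tet2 (1.94 TPM) was 4.49-fold below Tet3, and Dnmt3b (1.22) and Tet1 (0.64) followed with intervals of each step that held 1. ICR MEFs had the same first 6 genes in the same order, with 55.1, 47.8, 45.4, 16.2, 9.44 and 3.98 TPM. Their Dnmt1 exceeded Uhrf1 by 1.15-fold (1.02 to 1.31), while Uhrf1 and Tdg did not differ beyond counting error. In the ESC library Uhrf1 led with 41.3 TPM, 3.40-fold above Tdg (2.60 to 4.50) at 12.2. Dnmt3a followed at 5.36 and Dnmt1 at 2.94, a step of 1.82-fold with an interval that held 1 (0.973 to 3.33). Tet3 (1.43 TPM), Dnmt3b (0.67), Tet1 (0.43) and Tet2 (0.34) came next, and no step among these 4 was beyond counting error. The place of Dnmt1 below Dnmt3a in the ESC library holds for the deposited lengths only. At a fixed length per gene, Dnmt1 was at 4.96 TPM and Dnmt3a at 1.84 TPM there, so that Dnmt1 followed Tdg.

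The place of Tet1 in this order likewise depends on the length that RSEM gave it. The gene had 25 and 23 counts in OG2 and ICR MEFs, but 0.64 and 2.47 TPM, a 3.86-fold difference. Its RSEM length, which is the mean over transcripts weighted by their estimated share, was 13986 bases in OG2 MEFs and 4050 in ICR MEFs. The first is exactly the length of 1 of the 5 listed transcripts, which span 581 to 14369 bases. Of 8336 genes with at least 10 counts in every library, 0.408% had lengths more than 2-fold apart between OG2 and ICR MEFs. The lengths of Dnmt3a and Tet3 were stable between the MEF samples (5140 and 6170 bases, and 10001 and 10282 bases) and shorter in the ESC library, at 1943 and 4415 bases. These were 34.4% and 43.5% of the MEF mean. Of the 8336 genes, 5.97% were more than 2-fold shorter in the ESC library. Their TPM in the ESC library, from 19 and 12 counts, is raised by this in comparison with a fixed length. Dnmt1, Uhrf1, Tdg, Tet2 and Dnmt3b had lengths in the ESC library between 98.6% and 105.4% of the MEF mean.

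**Figure D3:**
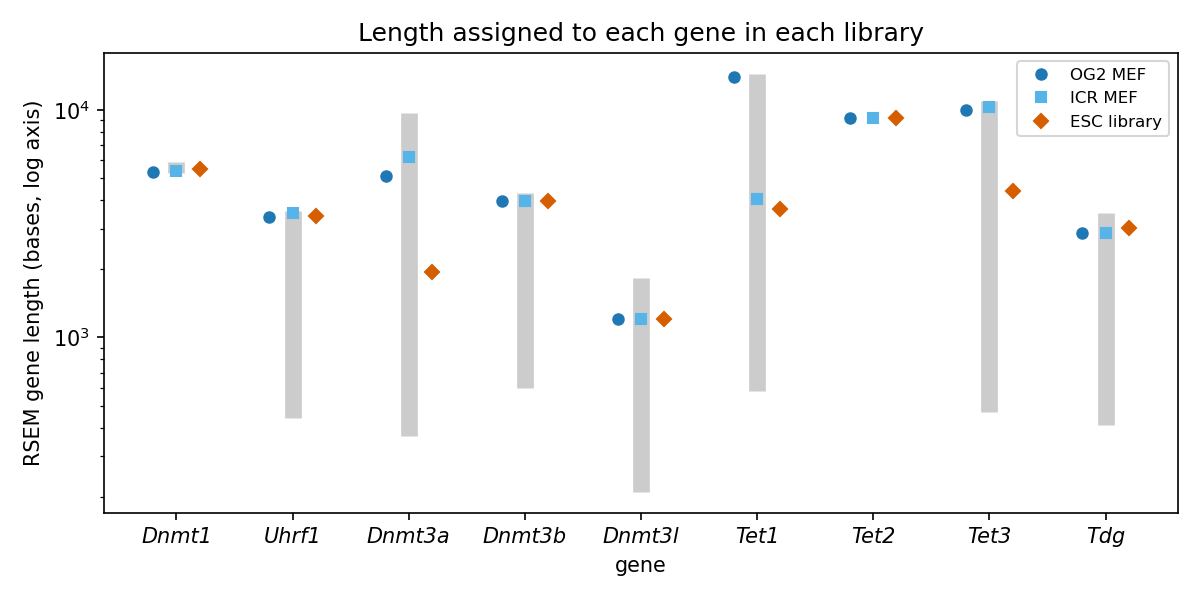
Gene length in bases, on a log axis, as RSEM assigned it in OG2 MEFs, ICR MEFs and the ESC library. Grey bars span the shortest to the longest listed transcript. Tet1 had 13986 bases in OG2 and 4050 in ICR MEFs, and Dnmt3a and Tet3 were shorter in the ESC library.

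Between the MEF strains, 0 of the 8 genes were at least 1 log2 unit apart, against 2.76% of 17810 genes. Tet2 showed the largest gap, with 1.97-fold more counts per library in ICR MEFs (1.37 to 2.86), or -0.86 log2 units for OG2 minus ICR. For the other 7 genes the interval of the ratio of OG2 to ICR held 1, with ratios from 0.907 for Tdg to 1.45 for Dnmt3b. A gap at least that of Tet2 was found in 4.79% of the genes with at least 10 counts, and in 4.40% of the 2160 genes whose mean MEF count was within 1.5-fold of its own. Tet2 has 1 listed transcript of 9179 bases, so its TPM of 1.94 and 3.98 gave a similar ratio of 2.05. Blood markers summed to 36.5 CPM in OG2 and 16.6 CPM in ICR MEFs, and endothelial markers to 14.6 and 20.5 CPM. Their part in the gap was not tested. Whether the gap belongs to the strain or to the culture cannot be told apart with 1 library of each.

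The members' differences were set beside those of genes of like length, since long genes were lower in the ESC library as a whole. In 1 of 20 bins of genes by length, that of the longest with 6408 bases or more, the median difference was -1.26. Tet3 with -2.21 was below this median, Tet2 with -1.30 was at it, and Tet1 with -0.79 was above it. Tet1 is in this bin by the mean of its unlike MEF lengths, 13986 and 4050 bases. The bin of Dnmt1 and Dnmt3a had a median of -1.04, so that Dnmt1 was 1.45 log2 units and Dnmt3a 0.59 below genes of its length. Uhrf1 was above its bin, whose median was -0.46, and Tdg was near its own at -0.31. With both GC content and length corrected in bins of genes, Dnmt1 (-1.54), Tet3 (-1.59) and Uhrf1 (1.82) still differed from each MEF sample by 1 log2 unit or more. Relative to the median gene of each setting, Dnmt1 was between -2.20 and -1.42, and Tet3 between -2.37 and -0.51.

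**Figure D4:**
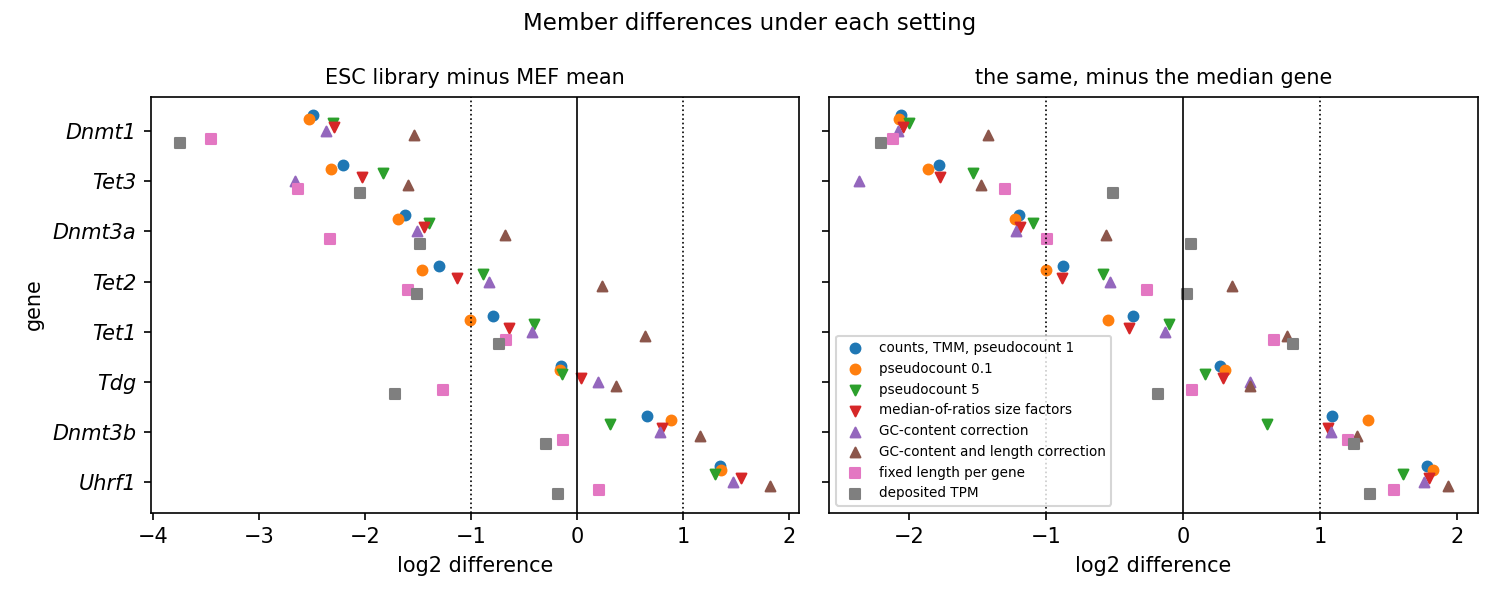
Log2 difference of the ESC library from the MEF mean for the 8 genes with a count, under each of 8 settings (left), and the same after subtraction of the median over genes with at least 10 counts (right). Dotted lines mark 1 and -1. Dnmt1 and Tet3 lay below 0 and Uhrf1 above it in the right panel under all 8, whereas in the left panel Uhrf1 was at -0.18 in the deposited TPM.

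Genes around the members were described by lists, of which the genes with the highest and lowest differences are named, so that their size follows from the choice. List counts are read against the shares of all genes given above. By counts these were 21.9% higher and 25.9% lower, or 23.7% and 35.7% among genes with at least 10 counts in 1 library. Nearly all list genes with a count reached that depth, except in the germline list. The shares were 9.12% and 43.2% in the deposited TPM, 11.3% and 39.7% at a fixed length per gene, and 31.4% and 36.0% for edgeR. Of 12 partners of maintenance methylation, 5 were higher in the ESC library and 3 lower, and edgeR called 6 and 5. In the deposited TPM and at a fixed length, 3 were higher and 6 lower, and the shares of all genes shifted in the same direction. Lig1, the ligase of replication, had 305, 264 and 465 counts in OG2 MEFs, ICR MEFs and the ESC library (difference 2.64), and Hdac1, a histone deacetylase, had 848, 561 and 1962 (3.45). Uhrf2, the paralog of Uhrf1, had 409, 373 and 11 counts (-3.05), and Hdac2 had 685, 640 and 27 (-2.60). By counts, Uhrf1 and Uhrf2 had differences of opposite sign, but in the deposited TPM that of Uhrf1 was -0.18. Hdac1 and Hdac2 differed in sign in both units. The median over the 12 genes was 0.01.

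Of the 14 genes with a count among 15 of base excision repair and other routes of demethylation, 8 were higher and 1 was lower, the same counts as by edgeR. The counts were 4 and 4 in the deposited TPM and 3 and 4 at a fixed length, and with a pseudocount of 5 they were 5 and 1. The median over the 13 with at least 10 counts was 1.25, against -0.43 over all genes at that depth. Ung, the uracil glycosylase, had 38, 30 and 142 counts in the order above (difference 3.82), and Xrcc1, a scaffold of the repair of single-strand breaks, had 160, 142 and 321 (3.00). Gadd45a, a stress gene reported to take part in demethylation, was lower with 135, 120 and 1 counts (-3.84). Smug1, another uracil glycosylase, had 69, 73 and 10 (-0.79, neither). The difference of Tdg, the glycosylase among the 9 members, was -0.15 beside these.

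Of 8 genes listed as readers of methylated DNA or their relatives, 1 was higher and 4 were lower, with a median of -0.99, and edgeR called 2 and 5. They were 1 and 5 in the deposited TPM and 0 and 6 at a fixed length. Mbd4, which is both a reader and a glycosylase, had 22, 27 and 36 counts (2.28). It is in the list of base excision repair too and is counted as higher in both lists. Mbd2 and Zbtb33 had 299, 274 and 8 (-3.00) and 147, 139 and 2 (-3.50). Mbd3 of the NuRD complex had 813, 672 and 320 counts (0.74, neither). Of the 12 genes with a count in the list of the methyl donor cycle, 1 was higher and 4 were lower, and edgeR called 3 and 5. The lower genes include Ahcyl1 and Ahcyl2, which are in the list as homologs of Ahcy. In the deposited TPM 1 and 7 were counted, and at a fixed length 0 and 6. Shmt1, which charges folate with a carbon unit, had 82, 82 and 65 counts (1.56). Mat2b, a regulatory subunit, and Ahcyl1 had 267, 278 and 8 (-2.93) and 1239, 1198 and 40 (-2.93). Ahcy, which removes the product that inhibits methyltransferases, had 450, 163 and 142 counts and was the only gene of this list at least 1 log2 unit apart between OG2 and ICR MEFs.

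Other lists hold the genes that supply what TET enzymes use. Of 14 genes of 2-oxoglutarate supply and its competitors, 0 were higher and 6 were lower (edgeR 1 and 8). The lower genes numbered 12 in the deposited TPM and 11 at a fixed length. Before TMM scaling, which narrows the gap, the summed level of the 14 was 1947 and 1837 CPM in OG2 and ICR MEFs and 803 CPM in the ESC library. Idh2, which makes 2-oxoglutarate in mitochondria, had 799, 662 and 25 counts (-2.84), and Sdhd, a subunit of succinate dehydrogenase, had 585, 507 and 27 (-2.32). Ogdh (1266, 917 and 364 counts, 0.39) and D2hgdh (87, 81 and 26 counts, 0.25) passed neither limit of the rule. Of the 8 genes with a count in ascorbate transport and recycling, 2 were higher and 3 were lower (edgeR 2 and 2), against 1 and 6 in the deposited TPM and 1 and 5 at a fixed length. The ascorbate transporters went opposite ways, with 2, 0 and 20 counts for Slc23a1 (3.72) and 136, 134 and 1 for Slc23a2 (-3.92). By counts, the glucose transporters that also carry dehydroascorbate did so too. Slc2a3 had 54, 67 and 39 counts (1.25) and Slc2a1 had 478, 486 and 21 (-2.49). In the deposited TPM both had lower values in the ESC library, with 5.95, 7.20 and 3.36 for Slc2a3 and 70.9, 83.0 and 4.33 for Slc2a1. On the log2(TPM + 1) scale Slc2a3 was less than 1 log2 unit below each MEF sample and was not counted as lower.

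Of the 12 partners and regulators of TET proteins with a count, 2 were higher and 4 were lower (edgeR 5 and 4), against 1 and 6 in the deposited TPM and at a fixed length. Sall4, a zinc finger protein of pluripotent cells that can bind oxidised cytosine, had 0, 0 and 16 counts (3.64), and Cxxc5 had 186, 210 and 136 (1.39). Pspc1 and Dcaf1 had 159, 165 and 4 (-3.00) and 261, 225 and 7 (-2.93). Of 14 germline genes whose promoters are known to be methylated in somatic cells, 9, 10 and 10 had a count of 0 in OG2 MEFs, ICR MEFs and the ESC library, and their summed level was 4.66, 4.14 and 2.33 CPM. Sycp1, of the synaptonemal complex, was the only one with 10 counts in a library (10, 7 and 0, a difference of -1.35). The other 13 stayed below 10 counts in each library and edgeR tested none of the 14, so a change of this list could not be seen at this depth.

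**Figure D5:**
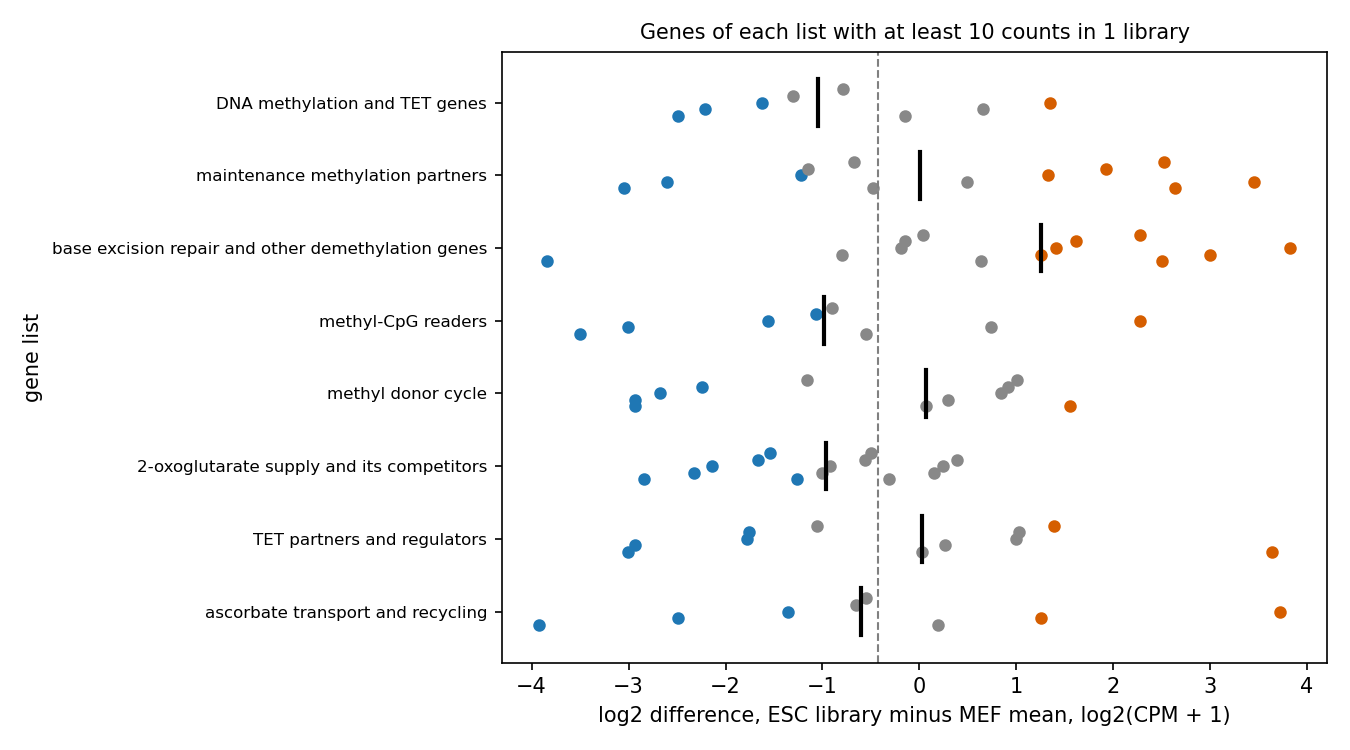
Log2 differences of the ESC library from the MEF mean, 1 point per gene with at least 10 counts in 1 library, for the 9 members and 7 lists of related genes. Orange and blue points differ from each MEF sample by 1 log2 unit or more, black bars are list medians, and the dashed line is the median of all genes, -0.43. The list of base excision repair had its median at 1.25, and that of the members was at -1.05.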

How the data were processed

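Gene tables of 2 MEF libraries and 1 ESC library were analysed. By the submitters' processing notes, Bowtie, mm10 and RSEM were used. The paper names Ensembl v67, but some transcript identifiers appear later, so the release is unsure. The authors deposited an expected count, a TPM, an FPKM (not used) and a mean transcript length for each gene. These were taken as values from before the GC normalization described in the paper.

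Expected counts were rounded, scaled with TMM (edgeR 4.0.16, R 4.3.3) and given as log2(CPM + 1), which understates changes of low genes. The threshold of 1 log2 unit follows the paper, which names no test. The edgeR quasi-likelihood test was run with its filter on low counts and Benjamini-Hochberg adjustment over all 12663 tested genes. A trial on simulated counts had far fewer changed genes and no shift with gene length. It does not show how the test performs on these data. The edgeR p-values rest on the spread between the MEF samples, pooled in part over genes by the fit. This spread mixes strain, culture and technical differences, and the spread among ESC cultures is unknown. At these depths 3 counts equal 0.583, 0.654 and 1.75 CPM. Ratios have exact conditional binomial 95% intervals. Symbols and positions came from GENCODE M21 on GRCm38 (98.3% of 29267 identifiers), and promoters from RefSeq. Alternatives were pseudocounts of 0.1 and 5, median-of-ratios factors, deposited TPM, a minimum of 10 counts, no filter, correction over 20 bins of GC content alone or with length, leaving out each MEF sample, and DESeq2 1.42.0. A fixed length per gene was added after seeing the data. Members and lists were chosen with earlier results of these data known. Named genes were the 9 members and, of each list, up to 2 with the highest and 2 with the lowest difference among genes with at least 10 counts. Python 3.11.15, pandas 2.3.3, numpy 2.4.6 and scipy 1.17.1 served for the rest.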

Additional observations from a re-analysis of the deposited data

How the results depend on the processing

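The ESC library has 1 replicate, 1717838 counts and low counts of several pluripotency genes, so its own spread is unknown, and Tet1, Tet2 and Dnmt3b rest on 3, 6 and 5 counts there. By counts, 1 member was higher and 3 were lower than both MEF samples. In the deposited TPM, and with a fixed length per gene (added after seeing the data), 0 were higher and 5 were lower, with Tet2 and Tdg joining Dnmt1, Dnmt3a and Tet3, and Uhrf1 was at -0.178 and 0.207. In the deposited TPM 1 member, Tet1, was apart between OG2 and ICR MEFs, against 0 by counts. These settings moved the median of all genes by -1.11 and -0.904, against 0.174 with median-of-ratios factors, 0.125 with a pseudocount of 5, 0.137 with GC-content correction and 0.311 with GC content and length. Leaving out a MEF sample gave 1 higher member in both cases, and 3 to 4 lower, the 4 being reached without OG2 MEFs, where Tet2 was added. With a pseudocount of 0.1, Tet1 was added to those lower (4), and with GC content and length corrected Dnmt3a was lost (2). DESeq2, median-of-ratios factors and no filter gave the same 1 higher member in the tests, and Tet2 reached an edgeR adjusted p of 0.0151 without the filter (range over the fits 0.0151 to 0.337). Of 64 differences of members under the other settings, 21 moved by less than the spread of the MEF samples and 42 by more. The other 1, Uhrf1 in the deposited TPM, changed sign. Signs also changed among the 42, for genes counted as neither. With GC content and length corrected, Tet1 was at 0.641, Tet2 at 0.239 and Tdg at 0.371. Dnmt3b was at -0.291 in the deposited TPM and -0.129 at a fixed length. Tdg was at 0.038 with median-of-ratios factors and 0.201 with GC-content correction. The minimum-count setting reused the main values, so none could move. For Tet1 the spread of 0.002 is below counting error. Of 160 counts for the lists, 122 stayed within 1.5 times. No paired analysis was possible because just 1 library is labelled ESC. An edgeR fit on 1 MEF sample was not run, since no residual degree of freedom would be left.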
